A study of Mus musculus with 3 samples.

Results

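Annexins are a family of calcium-dependent proteins that bind the inner face of cell membranes. Their levels were followed across the layers of the mouse corneal epithelium. The list held 9 genes, Anxa1, Anxa2, Anxa3, Anxa4, Anxa5, Anxa7, Anxa8, Anxa9 and Anxa11, and all 9 were among the 17931 genes of the deposited single-cell count matrix. The matrix covered 38111 cells in 3 libraries, and each cell carried 1 of 8 class labels given by the authors. All animals were C57BL/6J mice with unperturbed corneas, so the study had 1 group and no treatment. Library 1 pooled 4 corneas of 2 male mice aged 20 weeks, library 2 pooled 4 corneas of 2 females aged 11 weeks, and library 3 pooled 7 corneas of 7 males aged 10 weeks. Sex, age and library therefore cannot be told apart, and only differences between classes within the libraries were tested.

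The corneal epithelium is a stratified tissue renewed from stem cells at the limbus, the rim between cornea and conjunctiva. Basal cells divide through transit-amplifying states, move up as wing cells and are shed from the surface as flat superficial cells. Annexins share a core that docks on acidic phospholipids when calcium rises, and differ in their amino-terminal tails, which bind partners such as the small S100 proteins. They are known for resealing torn membranes, linking membranes to actin, steering vesicles and, for annexin A1, dampening inflammation.

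The deposited labels were LSC (737 cells, read as limbal), Basal (8829), TAC1 (4136), TAC2 (3186), Wing (13447), Squam (5240, read as superficial), Conj (2422, read as conjunctival) and Immune (114). Levels are given as CPM, the UMIs of a gene scaled to a common total of UMIs per class and library. A UMI marks 1 captured transcript at its 3′ end, so the count does not grow with transcript length. Total depth was 177449217 to 190393121 UMIs per library, with medians of 8334 to 16160 UMIs per cell, and 142 of 37969 distinct barcode sequences occurred in more than 1 library. The markers fit these readings in part. Gpha2, a limbal marker, averaged 2700 CPM in limbal cells and 133 CPM or less in the other classes, whereas Krt15, also listed as limbal, was higher in conjunctival cells (25402 CPM) than in limbal cells (8912 CPM). Krt78 was highest in superficial cells (235 CPM) and Krt13 in conjunctival cells (6554 CPM). The cycling genes were divided, with Mki67 (354 CPM) and Top2a (465 CPM) highest in TAC2 cells. Pcna (212 CPM) and Mcm5 (87.4 CPM) were highest in TAC1 cells. Ptprc reached 399 CPM in immune cells and 0.0579 CPM or less elsewhere. The labels came from the same expression values, so differences between classes describe the classes and are not independent of how they were drawn.

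The annexins split into genes that were higher toward the surface and genes that were lower. Anxa2, Anxa9 and Anxa11 rose from basal to wing to superficial cells, Anxa5 fell at both steps, and Anxa3 fell in wing cells and was higher again in superficial cells. Summed over the 9 genes, annexin UMIs made up 3626 ± 248 CPM (SD, n = 3) in basal cells, 5177 ± 221 in wing cells, 6241 ± 521 in superficial cells and 7868 ± 720 in conjunctival cells. Anxa2 supplied 38.4% ± 2.44 (SD, n = 3) of the annexin UMIs in basal cells, 62.3% ± 0.281 in wing cells and 77.4% ± 0.699 in superficial cells. The share of Anxa1 was 33.2% ± 2.02 in basal cells and 8.65% ± 0.649 in superficial cells. Anxa1 and Anxa2 were thus the 2 most abundant annexins of basal cells, while Anxa2 alone supplied most annexin UMIs of the surface.

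**Figure D1:**
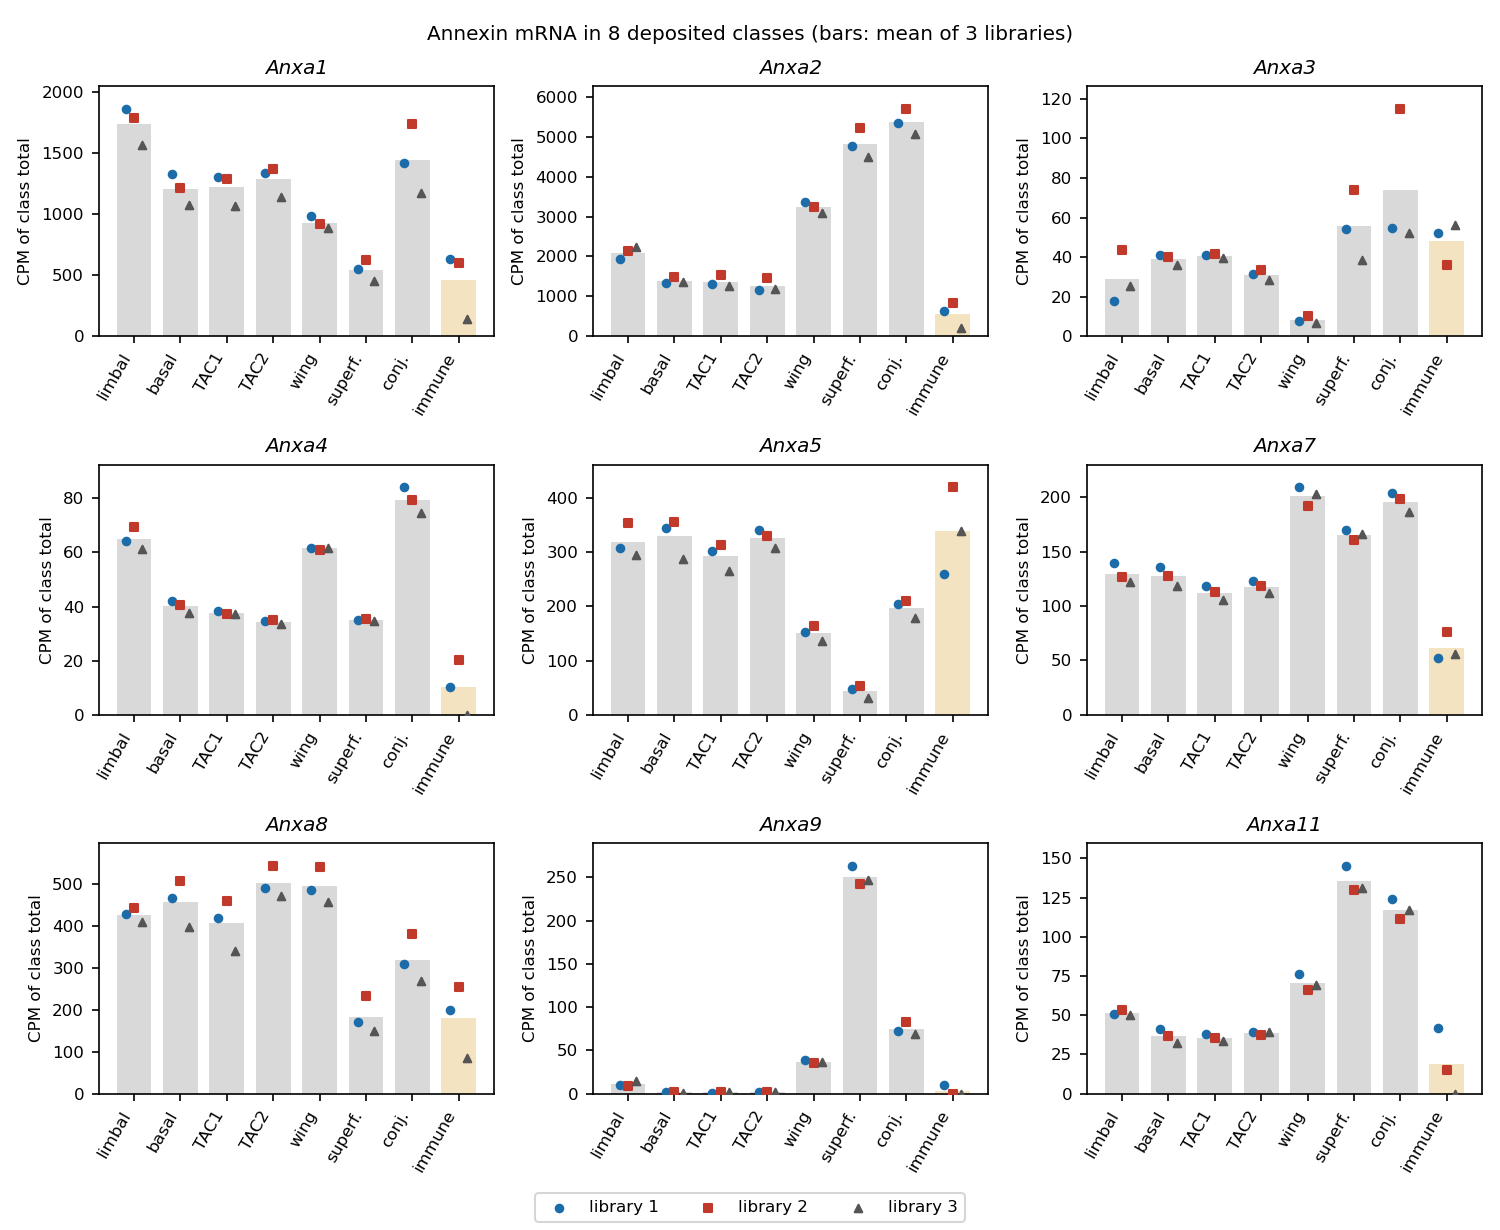
Level of each of the 9 annexins (CPM of the class total, linear axis from 0, with its own range in each panel) in each of the 8 classes. Points are the 3 libraries, and the 3 superficial points of Anxa9 lie between 242 and 263 CPM while its 3 basal points lie between 0.973 and 1.48 CPM.

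The bases just before the start of 4 genes are shown because 3 of them rose together toward the surface and the fourth fell. The sequences are from RefSeq on GRCm38.p6, cut where needed to end before the first annotated base of the gene, and 8 of the 9 annexins had an entry. Capitals mark matches on either strand to an AP-1 site (TGANTCA), a GC box (GGGCGG) or a CACCC box (CCACCC), and TATAAA and the Grainyhead motif AACNNGTT were also searched. The Anxa2 stretch at chr9:69453433-69453619 (plus strand) held 1 GC box, 2 CACCC boxes and 1 AP-1 match. The Anxa11 stretch at chr14:25841905-25842154 (plus strand) held 3 GC boxes. Neither the Anxa9 stretch at chr3:95307193-95307442 (minus strand) nor the Anxa5 stretch at chr3:36475895-36476137 (minus strand) held any of the 5 motifs.
Anxa2: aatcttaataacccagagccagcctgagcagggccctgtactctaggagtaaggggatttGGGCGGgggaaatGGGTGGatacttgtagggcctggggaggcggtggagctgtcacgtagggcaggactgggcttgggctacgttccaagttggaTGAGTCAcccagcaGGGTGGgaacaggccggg
Anxa9: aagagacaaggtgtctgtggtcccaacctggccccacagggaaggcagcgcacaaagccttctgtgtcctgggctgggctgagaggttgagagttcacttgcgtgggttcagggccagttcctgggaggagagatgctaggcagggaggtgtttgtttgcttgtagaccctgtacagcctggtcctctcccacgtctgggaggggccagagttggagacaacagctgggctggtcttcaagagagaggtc
Anxa11: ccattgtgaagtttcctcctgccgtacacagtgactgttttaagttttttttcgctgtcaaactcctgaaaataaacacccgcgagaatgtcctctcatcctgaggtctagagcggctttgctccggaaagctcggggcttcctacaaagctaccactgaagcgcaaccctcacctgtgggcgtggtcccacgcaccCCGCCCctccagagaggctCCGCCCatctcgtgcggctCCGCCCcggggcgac
Anxa5: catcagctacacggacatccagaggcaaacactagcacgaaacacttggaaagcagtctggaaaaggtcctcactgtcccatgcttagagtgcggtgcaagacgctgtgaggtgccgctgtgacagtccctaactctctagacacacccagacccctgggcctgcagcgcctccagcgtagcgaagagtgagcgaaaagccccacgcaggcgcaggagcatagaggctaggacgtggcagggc
Among 32536 RefSeq windows of 250 bases, 6.73% held the AP-1 motif, 33% the GC box, 28.1% the CACCC box, 12.3% TATAAA and 3.62% the Grainyhead motif. The 3 rising genes shared no motif of this set.

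Classes were compared on UMIs summed per library and class with edgeR's quasi-likelihood test, with the library as a block and Benjamini-Hochberg adjustment over all genes tested. All 9 annexins passed the filter on low counts in all 8 pairs of classes. Pairs with basal cells share the same basal sums. Scaling matters in the superficial layer, where the 20 most abundant genes took 40.8% to 41.7% of the UMIs, against 19.4% to 20.0% in basal cells. Fold changes are given on edgeR's TMM scale, which centres most genes near 0, and beside it relative to the class total. The second scale lowers superficial against basal by 1.15 on the log2 scale, and its median over all genes there was −1.26.

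Against basal cells, wing cells had 6 annexins higher and 3 lower on both scales. In that comparison 77.5% of the 13172 genes tested were called, 39.3% higher and 38.2% lower, so a call by itself sets no annexin apart. On the class-total scale 79.2% were called, 30.4% higher and 48.8% lower. Superficial cells against basal cells had 6 annexins higher, 1 lower and 2 not called on the TMM scale, where 86.6% of 12500 genes were called, 41.3% higher and 45.2% lower. Relative to the class total the split was 5 higher and 4 lower, with 91.8% of genes called, 20.7% of all genes higher and 71.1% lower. The median annexin log2 difference was 1.53 on the TMM scale, beside −0.11 over all genes, and 0.38 against −1.26 relative to the class total. From wing to superficial cells 7 annexins were higher and 2 lower on the TMM scale (79.7% of 12818 genes called, 37.9% higher and 41.8% lower). Relative to the class total 4 were higher and 5 lower (90.7% of genes called, 15.3% higher and 75.4% lower).

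**Figure D2:**
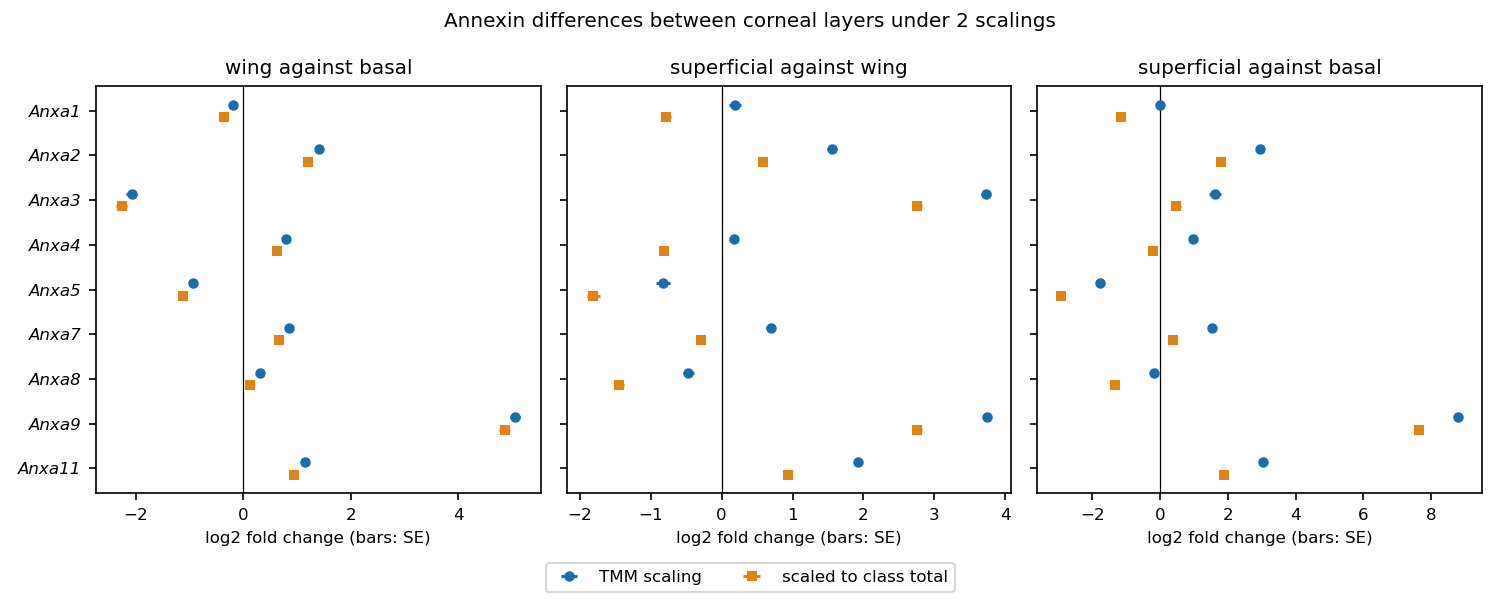
Log2 fold change of each annexin between layers, with bars for the standard error, on the TMM scale (circles) and relative to the class total (squares). Anxa9, Anxa2 and Anxa11 lie right of 0 and Anxa5 lies left of 0 in all 3 panels on both scales, while Anxa4, superficial against basal, moves from 0.96 to −0.20.

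Anxa2, on chromosome 9, forms a complex with S100A10 at the cell surface and on the cortical actin. Its level was 1339, 1477 and 1357 CPM in the basal cells of libraries 1, 2 and 3, and 3360, 3235 and 3083 CPM in the wing cells. In superficial cells it was 4777, 5226 and 4486 CPM. The 3 layers did not overlap in any library. Wing cells exceeded basal cells by 1.40 ± 0.05 on the log2 scale (SE, TMM; edgeR adjusted p = 2.39e-10; 1.21 relative to the class total). Superficial cells exceeded wing cells by 1.56 ± 0.07 (adjusted p = 7.19e-12, edgeR; 0.58 relative to the class total). With every cell thinned to 2000 UMIs, Anxa2 was found in 92.3% to 93.3% of basal cells and 99.9% to 100% of superficial cells. Nearly every cell of both layers thus held a UMI.

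Anxa9, on chromosome 3, encodes an annexin whose calcium-binding sites are degenerate, and it had the steepest difference of the family. The 3 libraries held it at 1.36, 1.48 and 0.973 CPM in basal cells, counted from 36, 37 and 26 UMIs. Wing cells had 38.5, 35.6 and 37.1 CPM and superficial cells 263, 242 and 247 CPM, from 7605, 6315 and 7597 UMIs. No library of one layer overlapped another layer. Superficial cells were 8.78 ± 0.12 higher than basal cells on the log2 TMM scale, a 439-fold difference (edgeR adjusted p = 1.17e-17; 7.63 relative to the class total). Wing cells stood 5.06 ± 0.10 above basal cells (adjusted p = 1.79e-12, edgeR) and superficial cells 3.74 ± 0.06 above wing cells (adjusted p = 2.35e-16, edgeR).

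The share of cells with an Anxa9 UMI at 2000 UMIs per cell was 37.2% to 41.9% in superficial cells, 5.76% to 6.84% in wing cells and 0.190% to 0.399% in basal cells (exact 95% binomial intervals of the basal shares reached at most 0.732%, counting error only). Unthinned median depths were 15019, 14083 and 8417 UMIs in these classes. Immune cells held 1, 0 and 0 Anxa9 UMIs in the 3 libraries without thinning, too few to set a background. The basal level was 0.516%, 0.612% and 0.394% of the superficial level in the 3 libraries. For the surface keratin Krt78 the same ratio was 0.404%, 0.630% and 0.390%, and for the mucin Muc4 it was 0.383%, 0.647% and 0.317%. The ratio was higher for Ly6g6c, at 1.15%, 1.30% and 0.885%, and lower for Cnfn, at 0.0900%, 0.207% and 0.120%. The ratios of Anxa9, Krt78 and Muc4 thus lay between 0.317% and 0.647%, while those of Ly6g6c and Cnfn lay outside this range. Ly6g6c was also high in wing cells (971 CPM). Slurp1, listed as superficial too, averaged 7365 CPM in basal and 10556 CPM in superficial cells and was not among the genes compared. Whether free RNA supplied the basal UMIs of any of these genes was not tested.

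Anxa11, on chromosome 14, has a long amino-terminal tail and is a known partner of S100A6. Its levels were 40.9, 37.0 and 32.1 CPM in basal cells, 76.3, 65.9 and 69.4 CPM in wing cells and 145, 130 and 131 CPM in superficial cells. The ranges of the 3 layers were separate. Its log2 difference was 1.14 ± 0.05 between wing and basal cells (edgeR adjusted p = 2.06e-09) and 1.92 ± 0.06 between superficial and wing cells (adjusted p = 1.95e-13, edgeR). Relative to the class total these were 0.95 and 0.94, an even step at each layer. The antisense gene Anxa11os, which overlaps it, had 7 UMIs in all cells.

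Anxa5, on chromosome 3, binds exposed phosphatidylserine and is the protein used to stain dying cells. It was held at 344, 356 and 287 CPM in basal cells, 153, 164 and 136 CPM in wing cells and 47.0, 53.9 and 31.3 CPM in superficial cells. All 3 libraries followed this order without overlap. Wing cells were lower than basal cells by a log2 difference of −0.93 ± 0.04 (edgeR adjusted p = 1.29e-09), and superficial cells lower than wing cells by −0.83 ± 0.10 (adjusted p = 7.52e-05, edgeR). Superficial against basal was −1.77 ± 0.10 on the TMM scale and −2.93 relative to the class total, so the direction did not depend on the scaling. At 2000 UMIs per cell an Anxa5 UMI was found in 47.5% ± 3.50 (SD, n = 3) of basal, 26.9% ± 3.10 of wing and 7.11% ± 1.81 of superficial cells.

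Anxa1, on chromosome 19, is the glucocorticoid-induced annexin that restrains phospholipase A2 and acts on formyl peptide receptors. Basal cells held 1328, 1210 and 1076 CPM, wing cells 982, 916 and 884 CPM and superficial cells 549, 622 and 454 CPM. As a part of the class total it was therefore lower in each higher layer in every library. Wing against basal was −0.19 ± 0.04 (edgeR adjusted p = 0.00258) on the TMM scale and −0.37 relative to the class total, and without library 1 the TMM call was lost (−0.17, adjusted p = 0.110, edgeR). Superficial against basal read 0.00 ± 0.08 (adjusted p = 0.959, edgeR) on the TMM scale and −1.16 relative to the class total (adjusted p = 1.17e-11, edgeR). On the TMM scale with every cell thinned to 2000 UMIs it was −0.23 (adjusted p = 0.00816, edgeR). Whether Anxa1 was called lower at the surface thus depended on the scaling and on the thinning.

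Anxa8, on chromosome 14, is an annexin of stratified epithelia. Its levels were 467, 507 and 397 CPM in basal cells, 486, 539 and 457 CPM in wing cells, and 171, 232 and 148 CPM in superficial cells. Wing cells exceeded basal cells by 0.30 ± 0.04 (edgeR adjusted p = 5.17e-05; 0.12 relative to the class total). Superficial cells lay below wing cells by −0.47 ± 0.08 (adjusted p = 2.13e-04, edgeR) and by −1.45 relative to the class total. Against basal cells the superficial value was −0.18 ± 0.09 and was not called (adjusted p = 0.0642, edgeR), but it was −0.29 without library 2 (adjusted p = 0.00310, edgeR) and −1.33 relative to the class total (adjusted p = 2.19e-12, edgeR).

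Anxa3, on chromosome 5, known from neutrophil granules, had its lowest level in the middle layer. It stood at 41.0, 39.8 and 35.8 CPM in basal cells, at 7.61, 10.4 and 6.51 CPM in wing cells and at 54.3, 73.9 and 38.4 CPM in superficial cells. Every library had its minimum in wing cells, counted there from 645, 752 and 632 UMIs. Wing cells fell below basal cells by −2.08 ± 0.10 on the log2 scale (edgeR adjusted p = 2.11e-07; −2.27 relative to the class total). Superficial cells exceeded wing cells by 3.73 ± 0.07, a 13.2-fold difference (adjusted p = 7.64e-16, edgeR; 2.75 relative to the class total). Superficial against basal was 1.63 ± 0.18 (adjusted p = 5.73e-04, edgeR) and 0.47 relative to the class total (adjusted p = 0.0180, edgeR).

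Library 2, from females, held more Anxa3 than libraries 1 and 3 in some classes. It had 115 CPM in conjunctival cells against 54.5 and 52.2, and 43.5 CPM in limbal cells against 17.7 and 25.4. In basal cells the 3 libraries were alike, at 41.0, 39.8 and 35.8 CPM. With 1 such library the difference has no replicate.

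Anxa4 and Anxa7, membrane-fusion annexins of secretory cells, were highest among the 3 corneal layers in wing cells relative to the class total. Anxa4 had 42.2, 40.6 and 37.7 CPM in basal, 61.8, 60.9 and 61.7 CPM in wing and 35.1, 35.5 and 34.6 CPM in superficial cells. Anxa7 had 136, 128 and 118 CPM in basal, 209, 192 and 203 CPM in wing and 170, 161 and 166 CPM in superficial cells. For both genes the wing values lay above all basal and superficial values. Wing cells exceeded basal cells by 0.80 ± 0.05 for Anxa4 (edgeR adjusted p = 1.35e-08) and by 0.85 ± 0.05 for Anxa7 (adjusted p = 6.79e-09, edgeR). From wing to superficial cells the sign depended on the scaling. Anxa4 was at 0.17 ± 0.06 on the TMM scale (adjusted p = 0.0127, edgeR; 0.0580 without library 1 and 0.0953 without library 2) and −0.81 relative to the class total. Anxa7 was at 0.69 ± 0.06 (adjusted p = 2.94e-08, edgeR) and −0.29. Anxa1 also changed sign at this step, from 0.19 (adjusted p = 0.0421, edgeR; 0.0664 without library 1 and 0.476 without library 2) to −0.79 relative to the class total.

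Limbal cells, the class that holds the stem cells, had 5 annexins higher and 1 lower than basal cells on the TMM scale, where 40.2% of 12116 genes were called, 21.4% higher and 18.8% lower. Relative to the class total the same 5 were higher and Anxa8 was not called (−0.10, edgeR adjusted p = 0.293), with 39.8% of genes called, 27% higher and 12.9% lower. Anxa1 was at 1863, 1785 and 1569 CPM in limbal cells, above all 3 basal values, with a difference of 0.41 ± 0.06 (edgeR adjusted p = 1.40e-07). Anxa4 had 64.1, 69.5 and 61.1 CPM and a difference of 0.58 ± 0.10 (adjusted p = 3.29e-06, edgeR). Anxa2 stood at 0.47 ± 0.06, Anxa11 at 0.38 ± 0.11 and Anxa9 at 2.93 ± 0.30, the last from 23, 36 and 26 UMIs in the 3 libraries.

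The limbal class held cells with Krt4, Krt13 and Krt19, keratins that were highest in conjunctival cells. Krt13 was not confined to them, averaging 4743 CPM in superficial and 1957 CPM in wing cells. At 2000 UMIs per cell 184 of 727 limbal cells carried at least 3 UMIs of Krt4, Krt13 and Krt19 together, 46 more had 2 and 23 of the 184 had exactly 3, so the line runs through a range. Of 8596 basal cells 47 had 2, and 2, 3 and 1 had 3, 4 and 5 or more. Among 13408 wing cells 650, 492 and 3870 had 3, 4 and 5 or more. The highest 10% of doublet scores took in 18.5% of limbal and 5.03% of basal cells. The carrying cells were also deeper, with medians of 8255 to 16168 UMIs against 5854 to 9535. Anxa9 had 20.9, 20.2 and 32.6 CPM in the carrying limbal cells and 2.74, 0.774 and 5.41 CPM in the others, the latter from 4, 2 and 6 UMIs. Anxa2 had 2820, 2935 and 3319 CPM against 1365, 1626 and 1638 CPM. By CPM, both genes separated the 2 sets in every library. Wing cells split by the same keratins showed the same order, with Anxa9 at 63.5, 63.2 and 66.0 CPM against 15.8, 13.9 and 17.3 CPM and Anxa2 at 4196, 4102 and 3927 CPM against 2601, 2555 and 2507 CPM. The order by CPM was thus shared by both classes. At equal depth Anxa9 was too rare in limbal cells to show it in every library. At 2000 UMIs per cell 0%, 2.20% and 1.79% of the carrying limbal cells had an Anxa9 UMI. Among the other limbal cells 0.800%, 0% and 1.23% had one.

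**Figure D3:**
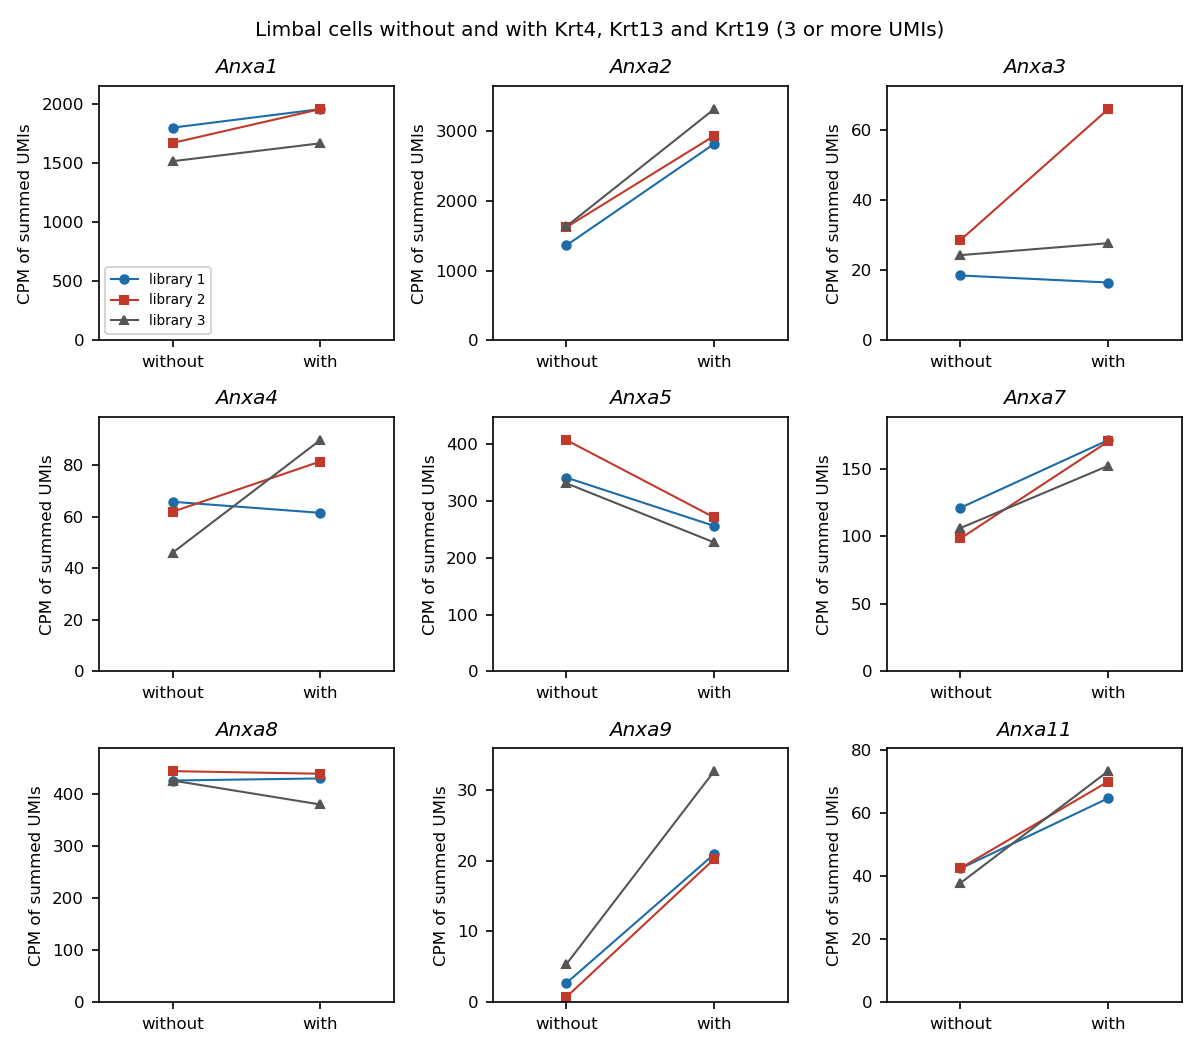
Levels of the 9 annexins (CPM of summed UMIs, linear axes from 0) in limbal cells with and without at least 3 UMIs of Krt4, Krt13 and Krt19 at 2000 UMIs per cell, 1 point per library. Anxa2 lies between 2820 and 3319 CPM with these keratins and between 1365 and 1638 CPM without them.

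Without the 184 carrying cells, 3 of the limbal differences were no longer called. Anxa9 was then at 0.82 (edgeR adjusted p = 0.327), Anxa2 at 0.02 (adjusted p = 0.827, edgeR) and Anxa11 at 0.04 (adjusted p = 0.847, edgeR). Leaving out the highest doublet scores gave 0.83 for Anxa9 (adjusted p = 0.229, edgeR) and 0.25 for Anxa11 (adjusted p = 0.120, edgeR). Anxa11 was also not called with all limbal cells by DESeq2 (0.36, adjusted p = 0.0674) or on thinned counts (0.19, adjusted p = 0.626, edgeR). Anxa1 remained called at 0.35 and Anxa4 at 0.42 without the carrying cells. Anxa3 and Anxa7, not called in the main test, were lower without the carrying cells, at −0.79 (adjusted p = 1.50e-05, edgeR) and −0.36 (adjusted p = 0.00208, edgeR). With all limbal cells, Anxa3 was also called lower by DESeq2 (−0.61, adjusted p = 0.0493) and by edgeR with no filter (−0.54, adjusted p = 1.15e-04). So were Anxa3 without the highest doublet scores (−0.48, adjusted p = 0.0475, edgeR) and Anxa7 on thinned counts (−0.39, adjusted p = 0.0439, edgeR). The Anxa8 difference of −0.21 (adjusted p = 0.0130, edgeR) was not called without library 1 (0.153) or library 2 (0.0860). Nor was it called by edgeR with no replicate block (0.157), in 1 fit over all classes (0.0837) or without the highest doublet scores (0.102). Anxa3 was called without library 2 (−0.99, adjusted p = 2.22e-08, edgeR) or library 3 (−0.46, 0.0122). The part that doublets with conjunctival or wing cells play in the carrying cells was not tested.

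The transit-amplifying classes, dividing basal-layer cells, differed little from basal cells. In TAC1 cells 3 annexins were called and all 3 were lower, where 41.6% of 12297 genes were called, 21.1% higher and 20.5% lower. The same held relative to the class total, with 42.4% of genes called, 20.2% higher and 22.2% lower. Anxa5 was at −0.16 ± 0.03, Anxa7 at −0.17 ± 0.04 and Anxa8 at −0.16 ± 0.03. TAC2 cells, highest in Mki67 and Top2a but below TAC1 cells in Pcna and Mcm5, had 4 annexins called on the TMM scale. All 4 were lower (48.5% of 12212 genes called, 24.9% higher and 23.7% lower). Relative to the class total 2 were higher and 4 lower (48.2% called, 30.7% higher and 17.5% lower). The lower 4 were Anxa3 at −0.40 ± 0.06, Anxa4 at −0.29 ± 0.06, Anxa2 at −0.21 ± 0.04 and Anxa7 at −0.18 ± 0.04. None of these TAC differences exceeded 1.32-fold. With no library block in the edgeR test 0 annexins were called in TAC1 cells, where 0 had an unadjusted p under 0.05, and 2 were called in TAC2 cells. DESeq2 with the block called 3 in TAC1 cells and 4 in TAC2 cells. Anxa5 was called in TAC2 cells only without library 3 (−0.12, edgeR adjusted p = 0.0102).

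Conjunctival cells, from the mucosa beside the cornea, had the highest mean levels of 3 annexins relative to the class total. Anxa2 was at 5341, 5702 and 5061 CPM, Anxa4 at 84.0, 79.4 and 74.5 CPM and Anxa3 at 54.5, 115 and 52.2 CPM. The Anxa2 range overlapped that of superficial cells, and so did that of Anxa3. Against basal cells 6 annexins were higher and 2 lower (77.4% of 12244 genes called, 37.3% higher and 40% lower), with Anxa9 at 6.20 ± 0.11, Anxa2 at 2.27 ± 0.05, Anxa11 at 2.01 ± 0.07, Anxa4 at 1.31 ± 0.07, Anxa7 at 0.95 ± 0.06 and Anxa1 at 0.57 ± 0.08. Anxa5 was at −0.41 ± 0.06. The split was the same relative to the class total, with 80.6% of genes called, 27.5% higher and 53% lower. Anxa8 was at −0.20 ± 0.06 (edgeR adjusted p = 0.0109), a call lost without library 1 (0.214) or library 3 (0.108). Anxa3 missed the threshold at 1.17 ± 0.31 (adjusted p = 0.0503, edgeR) and passed it without library 2 (0.81, adjusted p = 7.25e-13, edgeR). It was also called by DESeq2 (adjusted p = 2.72e-08), and by edgeR with no replicate block (adjusted p = 0.00663), RLE scaling (0.0468), thinned counts (1.65e-04) and 1 fit over all classes (3.63e-05).

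Set against superficial cells, conjunctival cells had 3 annexins higher, 5 lower and 1 not called on the TMM scale (72.4% of 11339 genes called, 36.4% higher and 36% lower), and 7 higher and 2 lower relative to the class total (86.1% called, 71% higher and 15.1% lower). Anxa5 at 1.42 ± 0.09, Anxa1 at 0.63 ± 0.07 and Anxa4 at 0.40 ± 0.07 were higher on both scales. Anxa9 was lower on both, at −2.52 ± 0.07 and −1.75, and so was Anxa11, at −0.98 ± 0.07 and −0.20. The sign for Anxa2 went from −0.62 to 0.15, for Anxa3 from −0.41 to 0.37 and for Anxa7 from −0.53 to 0.24.

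Immune cells were few, at 26, 68 and 20 per library, and entered no test. The 7 measured immune markers summed to 32370 to 44128 CPM in them and to 12.1 CPM or less in the epithelial classes. Anxa5 was the one annexin above the epithelial level, taken from all epithelial cells of the same library pooled, in all 3 libraries. It stood at 1.32, 1.96 and 2.09 times that level from 25, 82 and 12 UMIs. Its 260, 419 and 339 CPM lay beside 344, 356 and 287 CPM in basal cells, so in library 1 it was below the basal level. Anxa2 was at 0.210, 0.268 and 0.0666 times and Anxa1 at 0.598, 0.552 and 0.158 times the epithelial level. Epithelial RNA was present in these cells, with Krt12, the corneal keratin, at 0.346, 0.449 and 0.114 times its epithelial level. Its part in the annexin values was not tested.

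Most of the S100 genes whose proteins bind annexins had higher mRNA levels at the surface, along with Anxa2 and Anxa11. The gene lists here and below, like the annexins, were chosen with earlier results of these data known, so their counts are descriptive. Of 8 S100 genes listed, 7 were tested between superficial and basal cells, and 6 were higher and 1 lower on both scales. Of all genes, 41.3% were higher on the TMM scale and 20.7% relative to the class total. The median difference of the 7 tested S100 genes was 2.60, beside −0.11 over all genes, and 1.44 beside −1.26 relative to the class total. The lower gene was S100a4, which averaged 17.8 CPM in basal and 2.94 CPM in superficial cells. S100a10, the Anxa2 partner, had 1441, 1577 and 1968 CPM in basal cells, 3104, 3352 and 3500 CPM in wing cells and 10999, 12640 and 11557 CPM in superficial cells. The layers did not overlap, and superficial cells exceeded basal cells by 3.98 ± 0.11 (edgeR adjusted p = 6.39e-13; 2.83 relative to the class total). S100a11, which binds annexin A1, stood at 3.06 ± 0.08 and S100a6 at 2.95 ± 0.08. S100a10 averaged 5778 CPM in conjunctival cells, below its superficial level. For Anxa2 the order of these classes depended on the scaling. Relative to the class total it was higher in conjunctival than in superficial cells in all 3 libraries (0.15), and on the TMM scale it was lower (−0.62).

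**Figure D4:**
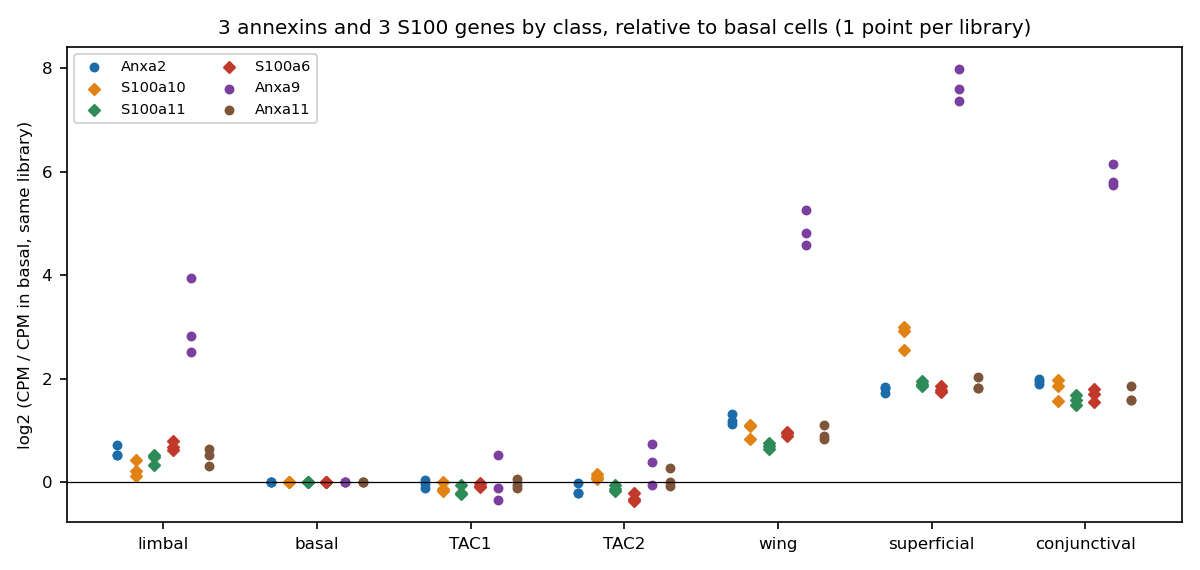
Levels of Anxa2, Anxa9, Anxa11 (circles) and S100a10, S100a11, S100a6 (diamonds) in each epithelial class as log2 of the CPM over the basal CPM of the same library, 1 point per library. All 6 genes lie above 0 in wing, superficial and conjunctival cells, with Anxa9 highest.

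Genes of membrane repair and of the ESCRT machinery, which reseals and pinches membranes, numbered 20, of which 18 were tested between superficial and basal cells. On the TMM scale 15 were higher and 3 lower, with a median of 2.09 (41.3% of all genes higher, 45.2% lower, median −0.11). The class-total scale had 12 higher and 4 lower, with a median of 0.93 (20.7% of all genes higher, 71.1% lower, median −1.26). Ehd1, a membrane-remodelling ATPase, was at 4.31 ± 0.09, the calcium sensor Sri at 3.10 ± 0.09 and the calpain subunit Capns1 at 2.45 ± 0.08. Cav1, the caveolar coat protein, was at −3.67 ± 0.13, with 41.4 CPM on average in basal and 1.45 CPM in superficial cells. All 4 had edgeR adjusted p-values of 1.85e-13 or less.

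The plasminogen system, for which the Anxa2 complex is a surface receptor, had 3 of 6 tested genes higher and 3 lower in superficial against basal cells on the TMM scale, and 2 higher and 4 lower relative to the class total. Over all genes the shares were 41.3% higher and 45.2% lower, and 20.7% and 71.1% relative to the class total, so this split was near that of all genes. Its protease Plau and receptor Plaur were scarce, at 2.35 and 0.152 CPM in basal and 0.188 and 1.90 CPM in superficial cells. Eno1, whose reads a near-identical gene copy may share, averaged 98.1 CPM in basal and 28.4 CPM in superficial cells, and it was lower on both scales (−0.63 and −1.79). Ahnak, a scaffold of the Anxa2 complex, averaged 590 and 458 CPM, and its sign depended on the scaling, at 0.79 ± 0.07 on the TMM scale (edgeR adjusted p = 4.28e-08) and −0.37 relative to the class total (adjusted p = 3.14e-05, edgeR). The list of annexin A1 receptors and eicosanoid enzymes had 5 of 10 tested genes higher and 5 lower in the same comparison on the TMM scale, and 3 and 6 relative to the class total, again near the shares over all genes. Alox12, a lipoxygenase, averaged 0.769 CPM in basal, 39.9 CPM in wing and 19.8 CPM in superficial cells. The phospholipase Pla2g4a had 11.8, 38.3 and 48.9 CPM in the same order, the protease Adam10 26.7, 36.5 and 25.0 CPM (superficial against basal 1.03 on the TMM scale, and −0.12 and not called relative to the class total), and Pla2g4f 0.0767, 1.03 and 0.523 CPM. Anxa6, the other annexin in the table, averaged 27.5 CPM in basal and 2.22 CPM in superficial cells (−2.49 ± 0.15, edgeR adjusted p = 1.32e-09), the direction of Anxa5.

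Across the 21 sums of 7 epithelial classes and 3 libraries, which share libraries and cells, log2 levels of Anxa2 and Anxa11 had a Pearson correlation of 0.97, as did Anxa9 and Anxa11. Anxa1 and Anxa5 stood at 0.89, and Anxa5 and Anxa9 at −0.85. For Anxa3 the correlations with the other annexins ran from −0.44 (Anxa8) to 0.22 (Anxa11). Genes most like each annexin were sought among 3069 genes of at least middling level, leaving out predicted, mitochondrial and ribosomal protein genes. By this correlation the 2 most alike genes were Lgals3 (0.992) and Taldo1 (0.991) for Anxa2, and Prss27 (0.996) and Emp1 (0.995) for Anxa9. They were Uaca and Tmbim6 (both 0.987) for Anxa11, and Cenpb (0.954) and Tmem176a (0.951) for Anxa1. Anxa4 was most like Rcn1 (0.959) and Acsm1 (0.955), Anxa7 like Golga4 (0.984) and Myh14 (0.977), and Anxa8 like Avpi1 (0.963) and Csnk2a2 (0.955). Anxa3 had no close match, with Ap2a2 at 0.736 and Fuca1 at 0.679.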

How the data were processed

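Single cells were counted with the 10x 3′ v3.1 kit after enzyme and trypsin separation, per the labels' protocols. Cell Ranger 5.0.0, Seurat 4 and mm10 are named in the submitters' processing notes, with no role given. The deposited matrix held raw UMI counts, and a deposited table gave each cell's library and class. Library 1 was matched to its labels by elimination. The annexins and pathway lists were chosen with earlier results of these data known.

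Counts were summed per library and class and tested with edgeR 4.0.16 (R 4.3.3; TMM, filterByExpr, robust fits), at an adjusted p under 0.05, after tests on simulated data. Both sums of a pair come from the same corneas, so the library was the block. Replicates are 3 libraries. Shares used cells thinned to 2000 UMIs, leaving out 609 shallower cells. All 9 annexins are named, with list genes chosen by abundance and by fold, and the 2 most alike genes, which for Anxa5 are not reported here. Alternatives were DESeq2 1.42.0, other scalings, no filter, no block, 1 fit over all classes, thinned counts, and cells or libraries left out. Doublets were kept in the main values, and the 10% with the highest scores left out in 1 alternative.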

Additional observations from a re-analysis of the deposited data

How the results depend on the processing

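Over 12 alternatives, 710 of 798 recomputed values kept their direction and their side of the threshold, 43 lost a call, 27 gained one and 18 changed sign. Genes called in limbal against basal cells went from 4875 to 3237 with DESeq2 and 1776 on thinned counts. For TAC1 cells 5113 genes went to 1298 with no replicate block, 2189 with DESeq2, 2166 thinned and 2993 in 1 fit over all classes, and annexins called went from 3 to 0 with no replicate block (0 at an unadjusted p under 0.05 in that edgeR fit, 3 by DESeq2) and 1 in 1 fit over all classes. For TAC2 cells 5927 genes went to 2630 with no replicate block, 3300 with DESeq2 and 2897 thinned, and 4 annexins to 2 both with no replicate block and in 1 fit over all classes. Thinned counts gave 6164 genes in conjunctival against basal cells (9471 in full) and 5075 in conjunctival against superficial cells (8205 in full). The cause of these moves was not tested, beyond the fewer UMIs of thinned counts.

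Scaling to the class total alone changed the sign of Anxa4 in superficial against basal cells (−0.20), of Anxa1 (−0.79), Anxa4 (−0.81) and Anxa7 (−0.29) in superficial against wing cells, and of Anxa2 (0.15), Anxa3 (0.37) and Anxa7 (0.24) in conjunctival against superficial cells. The uncalled Anxa7 difference of limbal cells became 0.02. Thinned counts put Anxa1 at −0.05 in superficial against wing cells. The other sign changes were of values not called: Anxa5 in limbal cells without the keratin-carrying cells (0.01), Anxa8 in conjunctival against superficial cells in 1 fit over all classes (−0.06), and Anxa9 in TAC2 cells without the highest doublet scores (−0.27). In TAC1 cells Anxa9 read 0.01 with no replicate block and with DESeq2, between −0.19 and 0.13 when single libraries were left out, and Anxa2 read 0.04 without library 3. Anxa1 in TAC2 cells read −0.02 without library 2. Low counts limit Anxa9 in basal, TAC and limbal cells, where each class and library held 14 to 37 of its UMIs.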
